A study of Mus musculus with 25 samples.

Results

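The 6 genes mt-Cytb, mt-Co1, mt-Co2, mt-Co3, mt-Atp6 and mt-Atp8 are the protein-coding genes of the mouse mitochondrial genome that do not belong to complex I. They were taken by name from a count table of 21720 genes. All 6 were present, and all 6 were among the 16515 genes that passed the filter on low counts. The lowest count of any of them in any library was 1685.

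Oxidative phosphorylation in the inner mitochondrial membrane passes electrons through complexes I to IV and uses the resulting proton gradient to make ATP at complex V, the ATP synthase. Most subunits are encoded in the nucleus, but a small core set is encoded by mitochondrial DNA, transcribed as long polycistronic precursors and cut into separate messengers. Neurons depend heavily on this pathway for ionic balance and synaptic transmission. mt-Cytb encodes cytochrome b, the only mitochondrially encoded subunit of complex III. mt-Co1, mt-Co2 and mt-Co3 encode the catalytic core of complex IV (cytochrome c oxidase), and mt-Atp6 and mt-Atp8 encode subunits of the membrane part of complex V.

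Bulk RNA from the brain cortex of 25 male mice aged 6 months was sequenced, with 5 mice in each of 5 groups. The wild type group consisted of C57BL/6J mice given vehicle. The 4 other groups were B6C3 mice of genotype APPswe, PSEN1dE9, an amyloid model (APP/PS1) in which a mutant amyloid precursor protein and a mutant human presenilin 1 are expressed from mouse prion protein promoters. The model control group received vehicle, the vestitol group (-)-Vestitol at 5 mg/kg, the salviolone group Salviolone at 5 mg/kg, and the combination group both at 2.5 mg/kg each. All injections were intraperitoneal, daily, over 3 months. The study asked how the natural products act singly and together, and the mice sequenced were a random subset of each group. Wild type and model mice differ in strain as well as genotype, and for any difference between them these cannot be told apart.

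The libraries held 59376320 to 109776852 counts each. The 6 genes took 0.258% to 0.552% of them, and all 13 mitochondrially encoded protein genes 0.409% to 0.829%. The unit of level is CPM, the share of a library's counts with library sizes adjusted by TMM, a normalization for RNA composition. A gene was called changed at an adjusted p under 0.05 in edgeR's quasi-likelihood test over all 16515 genes, with Benjamini-Hochberg adjustment. In bulk tissue, fewer cells of a type and less RNA per cell cannot be told apart. Cortical excitatory neuron markers were present in every library, at a summed 1187 to 2124 CPM over 8 genes. Libraries also differed in markers of neighbouring tissue. The 14 hypothalamus markers ranged in sum from 107 to 617 CPM in wild type mice and from 81.1 to 265 CPM in model control mice. They reached 79.4 to 135 CPM under vestitol, 82.9 to 97.9 under salviolone and 411 to 681 under the combination. Hap1, Zcchc12 and Baiap3 made up most of the mean sum in every group. Under the combination they had means of 205, 159 and 119 CPM, of a mean sum of 549 CPM. The 14 choroid plexus markers summed to 509 and 227 CPM in model control mice 4 and 5 and to 239 CPM in salviolone mouse 1. In the other libraries they summed to at most 95.6 CPM. Ttr alone had a mean of 130 CPM in the model control, of a mean sum of 167 CPM. In wild type it had 8.12 of 38.9 CPM.

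All 6 genes lie on the forward strand of the mitochondrial chromosome, with the same positions in the deposited mm39 table and in GENCODE M21 (mm10). mt-Co1 spans chrM:5328-6872, mt-Co2 chrM:7013-7696, mt-Atp8 chrM:7766-7969, mt-Atp6 chrM:7927-8607, mt-Co3 chrM:8607-9390 and mt-Cytb chrM:14145-15288. The open reading frames of mt-Atp8 and mt-Atp6 overlap, and those of mt-Atp6 and mt-Co3 meet at 1 base. The overlap is shown because reads within it fit both genes, and the ratio of the 2 genes is described later. It covers 43 bases, which is 21.1% of mt-Atp8 and 6.31% of mt-Atp6, and stands in capitals in both sequences, taken 5′ to 3′ from the GENCODE M21 transcripts. The whole of mt-Atp8 and the first 60 bases of mt-Atp6 read:
mt-Atp8: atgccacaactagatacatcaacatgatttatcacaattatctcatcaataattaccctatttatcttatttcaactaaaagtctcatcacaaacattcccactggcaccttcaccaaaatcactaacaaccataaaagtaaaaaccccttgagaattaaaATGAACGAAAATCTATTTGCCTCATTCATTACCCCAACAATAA
mt-Atp6: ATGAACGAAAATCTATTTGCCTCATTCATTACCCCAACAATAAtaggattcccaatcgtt
How the authors' counting assigned reads from the shared bases, and from nuclear copies of mitochondrial sequence, is not given in the sources used here. Counts of these genes carry that uncertainty.

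Per kilobase of annotated span, mt-Co1 was the most abundant of the 6 genes, with a mean level of 1864 CPM per kb over the 25 mice. mt-Co2 followed at 535 and mt-Atp6 at 522 CPM per kb, and these neighbours were not separated, since mt-Co2 was the higher in 17 of 25 mice. mt-Cytb stood at 429 CPM per kb and was below mt-Atp6 in 24 mice. mt-Atp8 at 249 and mt-Co3 at 172 CPM per kb were last, in the same order in all 25 mice. The authors' deposited FPKM, which are also per length, gave another order. There mt-Co1 had a mean of 941 FPKM, mt-Atp6 308, mt-Cytb 162, mt-Atp8 118, mt-Co2 108 and mt-Co3 38.98. mt-Atp8 and mt-Co2 were not separated on that scale, since mt-Atp8 was the higher in 12 of 25 mice. The lengths implied by dividing counts by FPKM were 1.69 times the annotated span for mt-Atp6 and 4.96 times for mt-Co2, so levels between these genes depend on the length used. Comparisons of 1 gene between groups do not.

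Across groups, 4 of the 6 genes had their highest mean under vestitol and 2, mt-Cytb and mt-Atp8, in wild type, while the lowest means were in the salviolone and combination groups. Their summed level was 4503 ± 410 CPM in wild type, 4629 ± 589 in the model control, 5201 ± 244 under vestitol, 3323 ± 794 under salviolone and 3735 ± 314 under the combination (mean ± SD, n = 5 mice each). All 5 vestitol mice, at 4938 to 5533 CPM, were above all salviolone mice and all combination mice. Within the salviolone group, mice 1 and 2 summed to 4361 and 3984 CPM and mice 3 to 5 to 2596 to 2893 CPM. mt-Co1 alone makes up most of each sum.

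**Figure D1:**
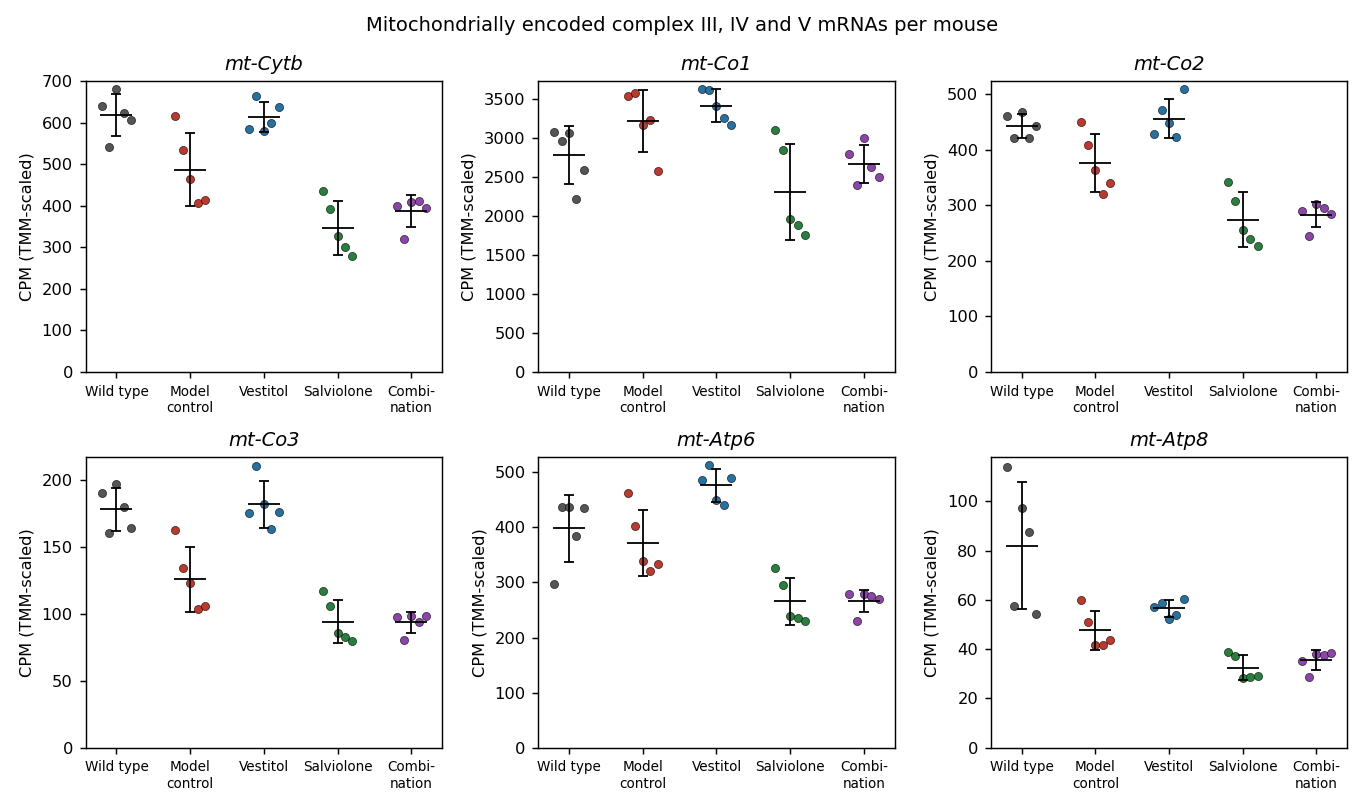
Level of each of the 6 genes in every mouse, in TMM-scaled CPM on linear axes that start at 0, by group. Points are mice, long bars group means and whiskers 1 SD (n = 5). In every panel the 5 vestitol mice lie above the 5 salviolone mice and the 5 combination mice, and only in mt-Atp8 do 3 wild type mice stand far above all other mice.

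In complex III, mt-Cytb was lower in every salviolone and combination mouse than in any vestitol mouse. Wild type mice 1 to 5 had 641, 541, 680.05, 624 and 606 CPM of mt-Cytb. Model control mice had 615, 534, 465, 406 and 413 CPM, so 4 of the 5 lay below every wild type mouse. Vestitol mice, at 584, 664, 579, 600.3 and 639 CPM, lay within or near the wild type range. Salviolone mice had 436, 392, 326, 300.4 and 279 CPM, and combination mice 400.04, 319, 409.5, 412 and 394 CPM. The highest salviolone mouse and the highest combination mouse were thus well below the lowest vestitol mouse.

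Among the complex IV genes, mt-Co1 encodes the subunit with the oxygen-reducing centre and was the only one of the 6 genes with a higher mean in the model control than in wild type. Its levels were 3075, 2968, 3071, 2218 and 2587 CPM in wild type mice 1 to 5 and 3540, 3580, 3175, 3235 and 2577 CPM in model control mice. Vestitol mice had 3637, 3615, 3410, 3257 and 3170 CPM. The lowest vestitol mouse was only just above the highest salviolone mouse, since salviolone mice had 3100, 2846, 1959, 1892 and 1753 CPM. Combination mice had 2804, 2403, 3006, 2637 and 2499 CPM, which overlapped wild type and model control.

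mt-Co2 encodes the subunit that receives electrons from cytochrome c. Wild type mice held a narrow range, at 460.3, 421, 467, 421 and 443 CPM of mt-Co2. Model control mice ran lower at 450.04, 407, 363, 320.2 and 339.8 CPM, with mouse 1 inside the wild type range. Vestitol mice had 428, 471, 447, 423 and 509 CPM, overlapping both. Salviolone mice at 343, 307, 255, 239.8 and 226 CPM and combination mice at 290.2, 245, 302, 294 and 284 CPM were all below every vestitol and wild type mouse.

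mt-Co3 encodes the third core subunit, which has no redox centre of its own. Wild type mice had 190.1, 160.2, 197, 180.2 and 164 CPM of mt-Co3. Model control mice had 163, 135, 123, 103 and 106 CPM, so only mouse 1 reached into the wild type range. Vestitol mice, at 175, 211, 182, 164 and 176 CPM, were all above the highest model control mouse, the lowest of them by less than 1 CPM. Salviolone mice had 117, 106, 85.6, 82.9 and 79.9 CPM. Combination mice had 97.5, 80.2, 98.4, 93.6 and 98.3 CPM, all below the lowest model control mouse.

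In complex V, mt-Atp6 encodes the subunit that forms the proton path beside the rotor ring. Wild type mouse 1 stood apart with 297 CPM of mt-Atp6, where mice 2 to 5 had 436, 438, 384 and 435 CPM. Model control mice had 462, 403, 338, 321 and 334 CPM, which overlapped wild type. Vestitol mice had 487, 514, 449.9, 439.9 and 489.9 CPM, and model control mouse 1 lay among them. Salviolone mice had 327, 296, 239, 236 and 229.8 CPM, and combination mice 279, 229.9, 279, 275 and 269 CPM.

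mt-Atp8 encodes a short subunit needed for the assembly and stability of the membrane part. It varied most among wild type mice, at 114, 57.6, 97.5, 87.4 and 54.2 CPM. Mice 1, 3 and 4 were above every other mouse of the study, and mice 2 and 5 were at the level of the vestitol group. Model control mice had 59.97, 51.2, 41.7, 41.7 and 43.8 CPM and vestitol mice 57.1, 58.8, 52.3, 54.03 and 60.6 CPM. Salviolone mice at 38.7, 37.3, 28.5, 28.7 and 28.96 CPM and combination mice at 35.2, 28.7, 38.2, 37.6 and 38.4 CPM were all below the lowest model control mouse.

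In the amyloid model on vehicle against wild type, 2 of the 6 genes fell, where 11.6% of all tested genes were called, 6.21% in the lower direction. mt-Atp8 fell by 0.78 ± 0.16 on the log2 scale (SE, adjusted p = 0.00363) and mt-Co3 fell by 0.50 ± 0.11 (adjusted p = 0.0066), so their mean levels were 0.581 and 0.707 of wild type. All 5 model control mice were below the wild type mean of both genes, but the groups overlapped for all 6 genes (4.57% of all genes had groups that did not overlap). mt-Cytb had a log2 fold change of -0.35 ± 0.11 (adjusted p = 0.0505), mt-Co2 of -0.23 ± 0.10 (0.122) and mt-Atp6 of -0.10 ± 0.11 (0.646). mt-Co1 alone had a positive value, 0.21 ± 0.13 (0.344). The 95% interval for mt-Co1 ran from -0.07 to 0.49, and that for mt-Atp6 from -0.33 to 0.13. The median over the 6 genes was -0.29, beside -0.01 over all genes.

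These 2 calls depended on which mice were in the fit. Without model control mouse 1, whose mitochondrial levels were the highest of its group for 5 of the 6 genes, 4 genes were called (mt-Cytb and mt-Co2 as well, at -0.44 and -0.31). Without model control mice 4 and 5, the mice with high choroid plexus markers, none was called, with mt-Co3 at -0.34 (adjusted p = 0.102) and mt-Atp8 at -0.69 (0.057). With only these 2 groups in the fit none was called either, at adjusted p = 0.0508 and 0.0715. Over all genes, 1913 were called in the main fit and 2099 without model control mouse 1. Without mice 4 and 5 it was 491 of all genes, and with only these 2 groups 349. In the same comparison 5 of 13 tested hypothalamus markers fell and 4 of 8 cortical excitatory markers rose. Of the 14 listed hypothalamus markers, tested or not, none was at 0 in every wild type mouse and Six6 was at 0 in every model control mouse. The part of tissue makeup in the result was not tested.

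Vestitol against the model control gave higher mean levels for all 6 genes, but none passed the test, and none of the 16515 tested genes did (0% called). The log2 fold change was 0.53 ± 0.11 for mt-Co3 (adjusted p = 0.251), 0.36 ± 0.11 for mt-Atp6 (0.458) and 0.33 ± 0.11 for mt-Cytb (0.502). It was 0.28 ± 0.10 for mt-Co2 (0.523), 0.25 ± 0.16 for mt-Atp8 (0.766) and 0.09 ± 0.13 for mt-Co1 (0.935). Unadjusted p values were under 0.05 for 4 of the 6 genes and for 1249 of all genes tested. For mt-Co3 all 5 vestitol mice were above all 5 model control mice, where 1.62% of all genes had groups that did not overlap. DESeq2 called mt-Co3 (adjusted p = 0.00897), and so did edgeR without model control mouse 1 (0.64, adjusted p = 0.0326). Over all genes, DESeq2 called 44 and that edgeR fit 2. Without model control mice 4 and 5, the mice with high choroid plexus markers, none was called, and the log2 fold changes ran from -0.01 for mt-Co1 to 0.37 for mt-Co3. The median over the 6 genes was 0.305 (all genes 0.00). All 14 choroid plexus markers (median -1.76) and 12 of 13 tested hypothalamus markers (median -0.76) had lower mean levels here, none of them called. Of the 8 cortical excitatory markers 6 were higher (median 0.06), and the part of these markers in the result was not tested.

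Salviolone against the model control gave lower mean levels for all 6 genes, and none passed the test, where 0.0242% of all genes did. The values were close to each other, from -0.42 ± 0.11 for mt-Co3 (adjusted p = 0.167) to -0.56 ± 0.16 for mt-Atp8 (0.194), with a median of -0.48 (all genes 0.00). mt-Co2 had the smallest adjusted p, 0.0712, at -0.46 ± 0.10. mt-Cytb stood at -0.49 ± 0.11 (0.101), mt-Atp6 at -0.49 ± 0.11 (0.101) and mt-Co1 at -0.48 ± 0.13 (0.174). All 6 unadjusted p values were under 0.05, as were those of 1893 of all genes tested. The groups did not overlap for mt-Atp8 alone (2.36% of all genes). This comparison depended on the tool and on 1 mouse. DESeq2 called all 6 genes, with adjusted p values from 0.00463 to 0.0451, and without salviolone mouse 1 edgeR called 4 of them, mt-Cytb, mt-Co1, mt-Co2 and mt-Atp6 (adjusted p = 0.0355 to 0.0398). Without model control mice 4 and 5 edgeR called 2, mt-Cytb and mt-Co2 (0.0343 for both). Over all genes, these fits called 116, 30 and 12, in that order. Of 14 choroid plexus markers 13 had lower mean levels (median -0.93), of 13 hypothalamus markers 8 (median -0.60) and of 8 cortical excitatory markers 0 (median 0.16), none of them called, and their part in the result was not tested. Salviolone mouse 1 had the highest level of its group for all 6 genes and the highest choroid plexus markers.

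The combination against the model control lowered 3 of the 6 genes, where 15.0% of all genes were called and 7.13% were lower. mt-Atp6 fell by 0.48 ± 0.11 (adjusted p = 0.00551), mt-Co2 fell by 0.41 ± 0.10 (0.00567) and mt-Co3 fell by 0.43 ± 0.11 (0.0126), each to between 0.716 and 0.752 of the model control level. The log2 fold change of mt-Atp8 was -0.42 ± 0.16 (0.0845), of mt-Cytb -0.33 ± 0.11 (0.0522) and of mt-Co1 -0.27 ± 0.13 (0.187). All 5 combination mice were below all 5 model control mice for mt-Atp6, mt-Co2, mt-Co3 and mt-Atp8, where 12.6% of all genes had groups that did not overlap. The median over the 6 genes was -0.42 (all genes 0.00). DESeq2 called 5 genes, all but mt-Co1, where it called 2857 of all genes. Without model control mice 4 and 5 edgeR called 4, mt-Cytb being the addition (-0.48, adjusted p = 0.0202). Beside this, 10 of 13 tested hypothalamus markers rose, 5 of 8 cortical excitatory markers fell, and of 14 choroid plexus markers 1 rose and 3 fell. No hypothalamus marker was at 0 in every combination mouse. Their part in the result was not tested. The 3 comparisons with the model control use the same 5 control mice, so their values are given side by side and are not independent of each other.

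**Figure D2:**
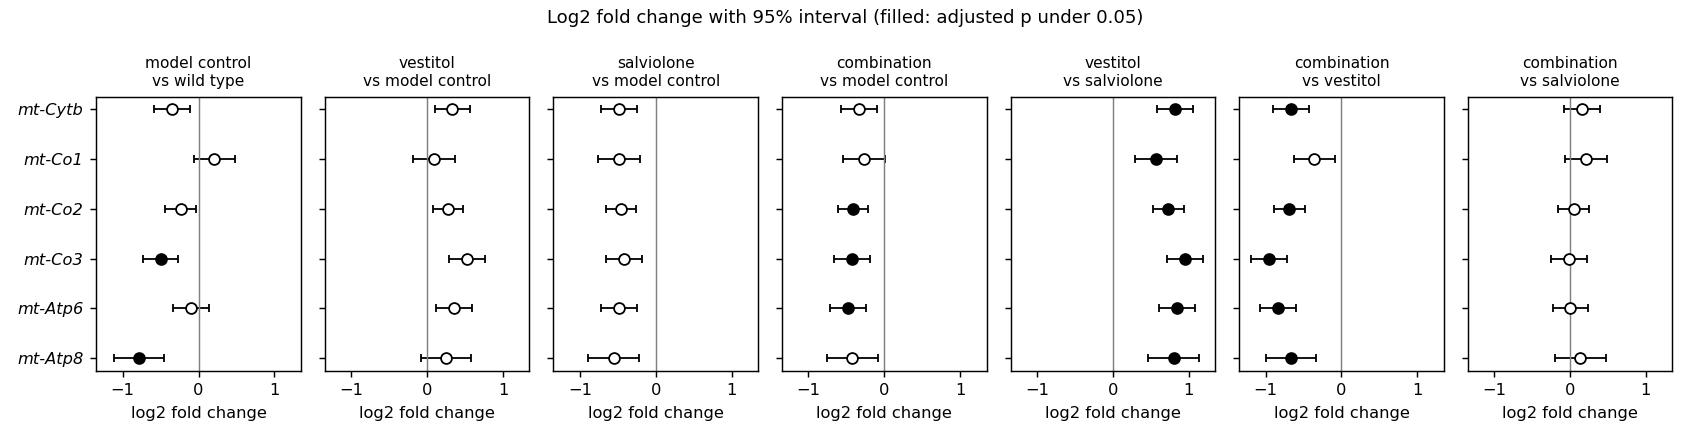
Log2 fold change of each of the 6 genes in 7 comparisons, with 95% confidence intervals from edgeR. Filled points have an adjusted p under 0.05. In vestitol against salviolone all 6 points are filled and above 0, and in combination against salviolone all 6 intervals include 0.

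The 2 single compounds were given at the same dose, over the same time, to the same model, and all 6 genes were higher under vestitol than under salviolone. In that comparison 0.684% of all genes were called, 0.593% in the higher direction. mt-Co3 was 1.93-fold higher (log2 0.95 ± 0.12, adjusted p = 0.000302), mt-Atp6 1.79-fold (0.84 ± 0.11, 0.000564) and mt-Cytb 1.77-fold (0.82 ± 0.11, 0.000644). mt-Atp8 was 1.74-fold higher (0.80 ± 0.16, 0.0229), mt-Co2 1.66-fold (0.73 ± 0.10, 0.000511) and mt-Co1 1.48-fold (0.57 ± 0.13, 0.0488). For every one of the 6 genes the lowest vestitol mouse was above the highest salviolone mouse, where 2.94% of all genes had groups that did not overlap. The median over the 6 genes was 0.81 (all genes 0.00).

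The calls of mt-Co3, mt-Atp6, mt-Cytb and mt-Co2 held in all 20 alternatives run. mt-Co1 was not called in 10 of 20, among them the fits without any 1 of the 5 vestitol mice or without salviolone mouse 3, 4 or 5 (adjusted p = 0.0578 to 0.165) and the fit with only these 2 groups (0.25). mt-Atp8 was not called without vestitol mouse 1 or 2 or salviolone mouse 3, 4 or 5 (adjusted p = 0.0555 to 0.0795). Between these 2 groups all 14 choroid plexus markers had lower mean levels under vestitol (median log2 -0.996), at a summed 11.8 to 26.8 CPM against 20.7 to 239 CPM under salviolone, and none was called. Of 8 cortical excitatory markers 7 were lower (median -0.07) and of 13 hypothalamus markers 7 (median -0.21), again none called. All 6 mitochondrial genes were called also without salviolone mouse 1, the mouse at 239 CPM. That mouse had the highest level of its group for all 6 genes, so leaving it out widens the difference and does not test the markers. The part of these markers in the result was not tested. Unadjusted p values were under 0.05 for 1935 of all genes.

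Against vestitol alone, at a dose that differs (2.5 mg/kg of each against 5 mg/kg of 1), the combination lowered 5 of the 6 genes, where 21.9% of all genes were called and 10.6% were lower. mt-Co3 fell by 0.96 ± 0.12 (adjusted p = 1.82e-05), mt-Atp6 fell by 0.84 ± 0.11 (4.05e-05) and mt-Co2 fell by 0.69 ± 0.10 (5.4e-05). mt-Atp8 fell by 0.67 ± 0.16 (0.00456), mt-Cytb fell by 0.66 ± 0.11 (0.000245), and mt-Co1 stood at -0.36 ± 0.13 (0.0594). mt-Co1 was near the threshold, and DESeq2 (adjusted p = 0.0235), edgeR with only these 2 groups (0.000853), edgeR with the filter of at least 1 CPM in 5 samples (0.0483) and edgeR without combination mouse 3 (0.0464) called it. For all 6 genes every combination mouse was below every vestitol mouse (18.1% of all genes had groups that did not overlap). In this comparison 11 of 13 hypothalamus markers rose and 7 of 8 cortical excitatory markers fell. Of the 14 listed hypothalamus markers, tested or not, Six6 and Ghrh were at 0 in every vestitol mouse. The part of these tissue differences was not tested.

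Against salviolone alone, where the doses also differ, none of the 6 genes was called, and 17.9% of all genes were. No unadjusted p was under 0.05 for any of the 6, where 4881 of all genes had one. The log2 difference was 0.00 for mt-Atp6 (95% interval -0.23 to 0.24), -0.01 for mt-Co3 (-0.25 to 0.23) and 0.05 for mt-Co2 (-0.16 to 0.25). For mt-Atp8 it was 0.14 (-0.20 to 0.47), for mt-Cytb 0.16 (-0.08 to 0.39) and for mt-Co1 0.21 (-0.07 to 0.48). Adjusted p values ran from 0.324 to 0.989, DESeq2 called none, and the intervals reach differences as large as 0.48 in mt-Co1. The groups overlapped for all 6 genes (15.8% of all genes had groups that did not), while 10 of 13 hypothalamus markers rose and all 8 cortical excitatory markers fell. Ghrh was the hypothalamus marker at 0 in every salviolone mouse, and the part of these tissue differences was not tested.

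All of the 7 mitochondrially encoded complex I genes but mt-Nd6 share a strand and its precursor transcripts with the 6 genes, and their values are given for comparison. Of the 7, none was called in the model against wild type (median -0.19), under vestitol (0.32) or under salviolone (-0.43) against the model control. Over all genes 11.6%, 0% and 0.0242% were called there, in that order. The combination lowered 3 of the 7, mt-Nd1, mt-Nd2 and mt-Nd5 (median of the 7 genes -0.27). There 15.0% of all genes were called and 7.13% were lower. All 7 were higher under vestitol than under salviolone (median 0.77), where 0.684% of all genes were called. The summed level of the 6 genes was 1.80 ± 0.14 times that of the 7 in wild type, 2.15 ± 0.21 in the model control, 1.93 ± 0.21 under vestitol, 2.01 ± 0.26 under salviolone and 2.13 ± 0.12 under the combination (mean ± SD, n = 5).

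Nuclear genes for the same complexes had list medians from -0.12 to 0.12 in the 7 comparisons. In the model against wild type, 1 of 9 nuclear complex III genes rose (Uqcrh, the hinge protein, 0.17 ± 0.04), 0 of 16 complex IV genes were called and 3 of 17 complex V genes rose (Atp5pb 0.21 ± 0.05, Atp5o 0.23 ± 0.08 and Atp5j 0.16 ± 0.05). In that comparison 11.6% of all genes were called. The list medians were 0.06, 0.09 and 0.09. Under vestitol and under salviolone none of these 9, 16 and 17 genes was called against the model control, with medians from -0.07 to 0.08. Over all genes only 0% and 0.0242% were called there, so the lack of calls says little about these lists. Under the combination Atp5g2 (0.17 ± 0.05), Atp5l (0.12 ± 0.04) and Cox7a2l (0.13 ± 0.04) rose, and Cox6a2, the muscle-type isoform of a complex IV subunit, fell by 0.59 ± 0.18. In this comparison with the model control 15.0% of all genes were called. Against vestitol the combination raised 1 of the 9 complex III, 3 of the 16 complex IV and 7 of the 17 complex V genes. It lowered 1, 1 and 0 of them, where 21.9% of all genes were called. The list medians there were 0.12, 0.02 and 0.11.

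Between vestitol and salviolone, 3 of the 9 nuclear complex III genes, 1 of the 16 complex IV genes and 0 of the 17 complex V genes were called, and these are named after their values were seen. Over all genes 0.684% were called there. Uqcrb was higher under vestitol (0.67), and Uqcrc1 (-0.18), Uqcrh (-0.18) and Cox6b1 (-0.22) were lower. The list medians were -0.12 for complex III, -0.09 for complex IV and -0.09 for complex V. All 3 medians were opposite in sign to that of the mitochondrially encoded genes.

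**Figure D3:**
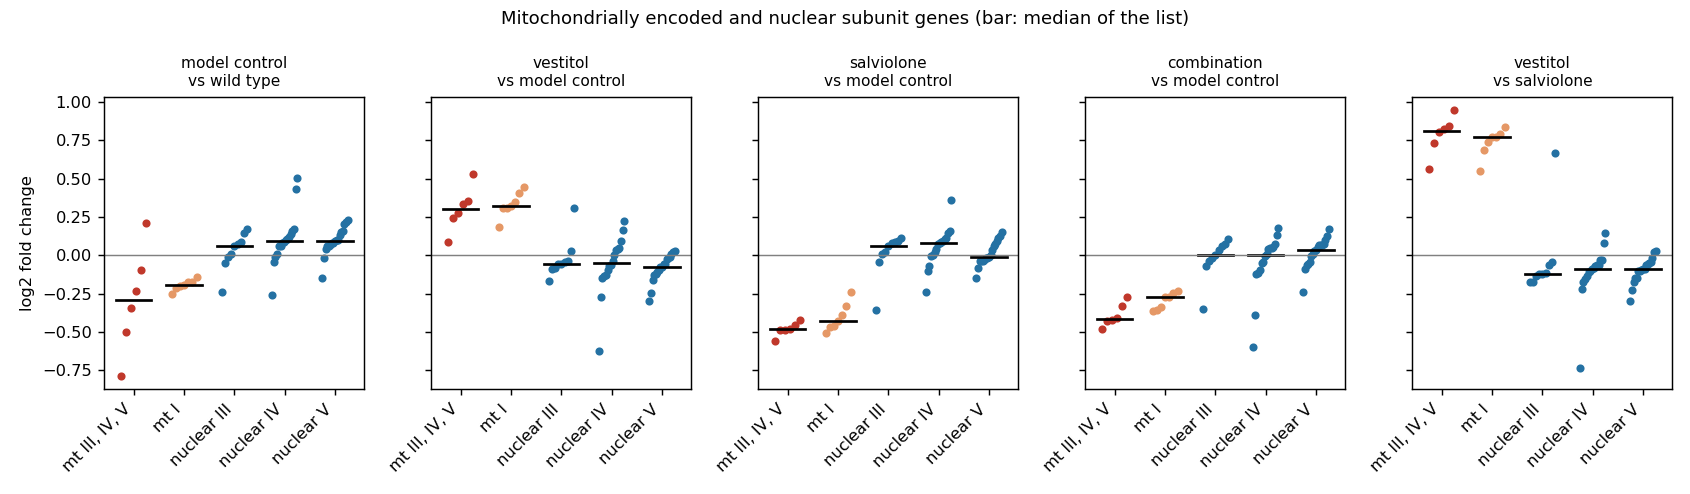
Log2 fold change of each mitochondrially encoded gene of complexes III to V (6 genes) and I (7 genes) and of each nuclear gene of complexes III, IV and V, in 5 comparisons. Points are genes and bars list medians. The mitochondrially encoded medians lie at 0.81 and 0.77 in vestitol against salviolone, and the nuclear medians there lie between -0.12 and -0.09.

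Calls among genes that make and maintain mitochondrial messengers are given beside the share of all genes called. That share was 11.6% in the model against wild type. Against the model control it was 0% under vestitol, 0.0242% under salviolone and 15.0% under the combination. Of 29 genes for mitochondrial DNA replication, transcription, RNA processing and decay, only Tfb2m, the mitochondrial transcription initiation factor, was called in the model against wild type (0.39 ± 0.10, adjusted p = 0.013). Against the model control none was called under vestitol, salviolone or the combination, with Tfb2m at -0.29 under the combination (0.0511). Of 7 regulators of mitochondrial biogenesis, Esrra, a nuclear receptor for oxidative metabolism genes, rose in the model (0.39 ± 0.08, adjusted p = 0.00308), and Ppargc1a, a coactivator of mitochondrial biogenesis, fell by 0.26 ± 0.08 under the combination (0.0321). Of 29 assembly factors of complexes III to V, none was called in the model against wild type. Under the combination Bcs1l, which inserts the iron-sulfur protein into complex III, rose (0.28 ± 0.07), and Ttc19, another complex III factor, fell by 0.22 ± 0.07. Between vestitol and salviolone 1 gene of these 3 lists was called, where 0.684% of all genes were. This gene was Taco1, a translational activator of mt-Co1, which was lower under vestitol (-0.37, adjusted p = 0.0229, named after its value was seen).

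Because mt-Atp8, mt-Atp6 and mt-Co3 lie next to each other, their count ratios were compared within each mouse, where library size cancels. The ratio of mt-Atp8 to mt-Atp6 was 0.383, 0.132, 0.223, 0.227 and 0.125 in wild type mice 1 to 5. In the 20 model mice it stayed between 0.115 and 0.143. Wild type mice 1, 3 and 4 were thus above every model mouse, and mice 2 and 5 within their range. The ratio of mt-Co3 to mt-Atp6 was 0.64, 0.367, 0.45, 0.469 and 0.377 in wild type and 0.317 to 0.364 in the model control, with no overlap. It was 0.36 to 0.41 under vestitol, 0.348 to 0.359 under salviolone and 0.341 to 0.365 under the combination. The same 3 wild type mice were high in both ratios.

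Exact two-sided permutation tests of the log2 ratios against the model control, or of the model control against wild type, gave no adjusted p under 0.05, with adjustment over 12 ratio tests. For mt-Co3 to mt-Atp6 the model control differed from wild type by -0.42, with an exact p = 0.00794, the smallest that 5 against 5 mice allow, and an adjusted p of 0.0635. Vestitol differed from the model control by 0.18 in that ratio (p = 0.0238, adjusted 0.0714, exact test). For mt-Atp8 to mt-Atp6 the differences were -0.64 for model control against wild type (exact p = 0.0794, adjusted 0.159; -0.41 without wild type mouse 1), -0.11 for vestitol (0.0159, 0.0635) and -0.07 for salviolone (0.0317, 0.0762). Without model control mouse 3, 4 of these differences had an adjusted exact p of 0.0476. They were -0.45 and 0.20 for mt-Co3 to mt-Atp6 in the model control and under vestitol, and -0.12 and -0.08 for mt-Atp8 to mt-Atp6 under vestitol and salviolone.

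The ratio of mt-Co1 to mt-Co2, looked at after the levels were seen and therefore only described, was 5.27 to 7.05 in wild type and 7.58 to 10.1 in the model control, with no overlap. It was 6.23 to 8.51 under vestitol, 7.69 to 9.26 under salviolone and 8.81 to 9.96 under the combination.

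**Figure D4:**
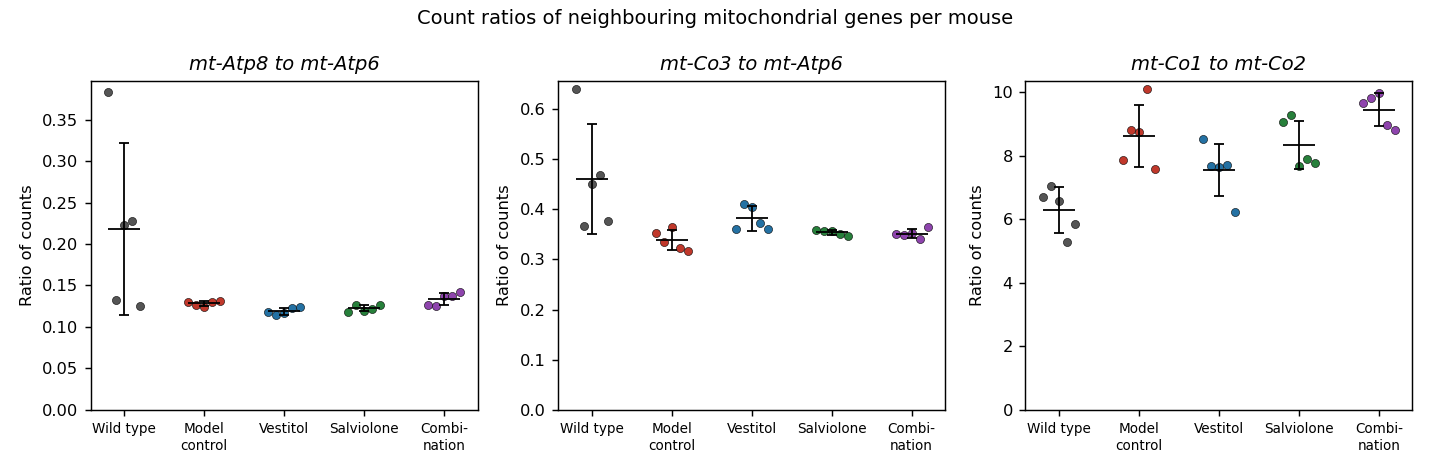
Count ratios within each mouse for mt-Atp8 to mt-Atp6, mt-Co3 to mt-Atp6 and mt-Co1 to mt-Co2, by group, on linear axes from 0. Points are mice, bars means and whiskers 1 SD (n = 5). Wild type mice 1, 3 and 4 stand above the others in the first and second panel, and all wild type mice lie below all model control mice in the third.

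Within groups the 6 genes moved together from mouse to mouse, which is a description across 25 mice after removing group means and with shared library sizes. The correlation (Pearson r) of each gene with the mean of the 6, itself included, was 0.969 for mt-Cytb, 0.960 for mt-Co3, 0.951 for mt-Co2, 0.817 for mt-Co1, 0.757 for mt-Atp8 and 0.719 for mt-Atp6. Complex I genes ranged from 0.548 for mt-Nd6 to 0.936 for mt-Nd4. Of 12946 genes ranked, the nuclear genes most like the mean of the 6 were Ptp4a2 (0.843), Pla2g7 (0.839), Mrpl50 (0.787), Sec62 (0.785) and Slc7a2 (0.774). Of these only Sec62 was called in a comparison with the model control, at 0.17 in the model against wild type (adjusted p = 0.0489).

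**Figure D5:**
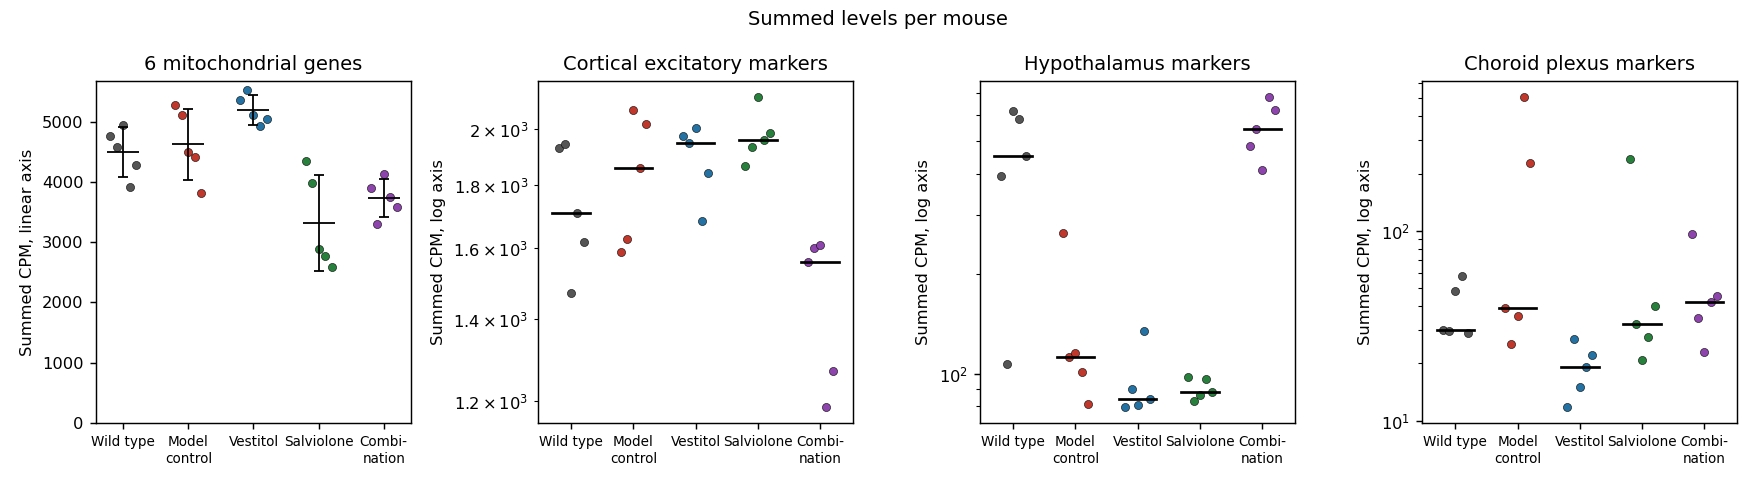
Summed CPM per mouse of the 6 genes (linear axis from 0) and of cortical excitatory, hypothalamus and choroid plexus markers (log axes), by group. Bars are means with 1 SD whiskers in the first panel and medians in the others (n = 5). The combination mice are the highest or among the highest in hypothalamus markers (411 to 681 CPM), and model control mice 4 and 5 are high in choroid plexus markers (509 and 227 CPM).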

How the data were processed

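Libraries came from total RNA of 25 cortices, and per the labels' protocols both a TruSeq and a SMARTER kit are named. Per the submitters' processing notes, reads were trimmed with Trim Galore and aligned with STAR to mm39. Tool versions, annotation, read counter and strandedness: not given in the sources used here. As deposited by the authors, the data are raw gene counts and FPKM, in separate tables of the same 25 samples. Of counts from 4 to 39, 44.3% were multiples of 4 (25% by chance), so the test was also run on counts divided by 4.

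Genes were kept by filterByExpr (minimum count 10). A single model with a mean for each group was fitted to the 25 mice (edgeR 4.0.16, R 4.3.3, TMM factors of 0.980 to 1.04) and tested by robust quasi-likelihood, two-sided. The 7 comparisons in the plot of log2 fold changes were made. DESeq2 1.42.0, limma 3.58.1 on log2 of the FPKM plus 0.1 or 1, other scalings and filters, a replicate block and each mouse left out were alternatives. The script was tested on simulated data. All 6 genes were named throughout. From other lists up to 3 called genes a direction, or the gene with the smallest p, could be named in comparisons with wild type or the model control, and the 5 nuclear genes most correlated with the 6. The genes and lists were chosen with earlier results of these data known. Sums over the 6 genes, and their ratio to complex I, are given with no p value, although a test had been planned. The planned tests of that ratio remain among the 12 ratio tests of the adjustment. P values rest on the spread between mice, and precision is limited by 5 mice a group.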

Additional observations from a re-analysis of the deposited data

Results flagged for a closer look

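Combination mouse 2 lay far below the other 4 mice of its group for 3 of the 6 genes. It had 319 CPM of mt-Cytb, where the others had 394 to 412, with a gap to the nearest mouse that was 0.800 of the group's range. It had 80.2 CPM of mt-Co3, where the others had 93.6 to 98.4 (gap 0.739 of the range), and 229.9 CPM of mt-Atp6, where the others had 269 to 279 (gap 0.809). Each gap exceeded the critical value of 0.71 for 5 samples. Over the 50 groups of values examined, these 3 stood out, which is near the rate of about 1 in 20 that chance gives. The 3 values come from 1 library and are not independent.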

How the results depend on the processing

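Over all alternatives, 787 of 864 values for the 6 genes kept their direction and their side of the threshold, 19 lost the threshold, 39 passed it and 19 changed sign, each of the last for a difference that was not called. Model mice 4 and 5 were left out together as a choice made after seeing the data. The number of the 6 genes called in model control against wild type was 0 with only the groups compared (349 of all genes). It was 0 without model mice 4 and 5 (491 of all genes) and 2 to 4 when each mouse was left out. For vestitol against the model control it was 1 in DESeq2 (44 of all genes) and 0 to 1 with mice left out. For salviolone against the model control it was 6 in DESeq2 (116 of all genes). It was 2 there without model mice 4 and 5 (12 of all genes), and 0 to 4 with mice left out. For the combination against the model control it was 5 in DESeq2 (2857 of all genes). Leaving out mice gave 3 to 4 there, 4 to 6 for vestitol against salviolone, 5 to 6 for the combination against vestitol and 0 for the combination against salviolone. Log2 ratios ranged, over mice left out, from -0.81 to -0.41 (mt-Atp8 to mt-Atp6, model control against wild type), -0.12 to -0.10 (the same, vestitol against model control), -0.0835 to -0.0586 (the same, salviolone), -0.49 to -0.29 (mt-Co3 to mt-Atp6, model control against wild type) and 0.15 to 0.20 (the same, vestitol). Over all genes, replicate numbers did not pair the mice. Over 50 same-number pairs the correlation of deviations ran from -0.092 to 0.091. That correlation does not address the 6 genes alone. Their share of counts fell steadily from mouse 1 to mouse 5 in the model control (0.536% to 0.376%) and under salviolone (0.435% to 0.258%). In the wild type, vestitol and combination groups it did not fall steadily. The part of replicate number in the levels of the 6 genes was not tested. A fit with the replicate number as a block called 2 of the 6 genes for salviolone against the model control (29 of all genes). It called 3 in the model control against wild type and all 6 in the combination against vestitol (mt-Co1 at adjusted p = 0.0158). For mt-Co3 in the combination against salviolone it gave 0.00534. Sign changes in the combination against salviolone were -0.00198 (RLE size factors), -0.00129 (at least 1 CPM in 5 samples) and -0.00197 (DESeq2) for mt-Atp6, and 0.0203 and 0.0192 (limma on log2 FPKM plus 0.1 and 1) for mt-Co3. Over all alternatives, mice left out included, mt-Atp6 ranged there from -0.0426 to 0.0870, mt-Co3 from -0.0629 to 0.0781 and mt-Co2 from -0.0152 to 0.136. Without model mice 4 and 5, mt-Atp6 in the model control against wild type was 0.0126, and under vestitol against the model control mt-Co1 was -0.00883 and Ptp4a2 -0.0252. With mice left out, Slc7a2 ranged from -0.102 to 0.333 in the model control against wild type and from -0.347 to 0.0855 in the combination against the model control, Mrpl50 from -0.0756 to 0.0158 in the latter, and Sec62 from -0.079 to 0.00522 under vestitol, and in all 4 the sign changed without model mouse 1. Ptp4a2 under vestitol ranged from -0.00212 to 0.0464. The cause of these changes was not tested. With 5 mice a group and counts of at least 1685 for the 6 genes, the spread between mice and not depth limits the precision.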

Other observations

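Among the 13 mitochondrially encoded protein genes, mt-Co1 took the largest share of counts in every group. The share was 39.6% ± 3.12 of the 13-gene sum in wild type (34.9% to 43.0%, n = 5) and 47.5% ± 3.12 in the model control (43.9% to 51.9%), with no overlap. It was 43.2% ± 2.83 under vestitol, 46.1% ± 3.13 under salviolone and 48.6% ± 1.78 under the combination. mt-Co3 took 2.55% ± 0.20 in wild type (2.32% to 2.84%) and 1.84% ± 0.13 in the model control (1.66% to 2.02%), again with no overlap, and 2.29% ± 0.17 under vestitol. It took 1.91% ± 0.06 under salviolone and 1.71% ± 0.06 under the combination. These shares were looked at after the levels were seen and carry no test. They depend on each other, since they sum to a whole within each library.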
